A study of Mus musculus with 10 samples.

Results

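The clustered protocadherins were described here in RNA from the hippocampus of C57Bl/6J wild-type mice, taken from synaptoneurosomes, that is, a fraction enriched in synaptic endings that reseal when tissue is homogenised. Genes were taken by symbol from the gene table, and 57 of its 22255 genes belonged to the cluster, with 14 alpha, 22 beta and 21 gamma genes. The GENCODE M21 annotation names 58 such genes, so the gene table does not hold all of them. The 10 libraries came from 5 vehicle and 5 AM6545 samples, numbered 1 to 5 in each group, and were compared after a sub-chronic course of treatment. AM6545 blocks CB1 cannabinoid receptors and acts mainly outside the brain. Dose, age and sex are not given in the labels used here, nor whether a library came from 1 animal or a pool, so n counts libraries and p-values measure only the spread between them.

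Clustered protocadherins are adhesion proteins of the neuronal surface that bind their own kind on a facing membrane and give each neuron a combinatorial identity. Each alpha and each gamma messenger RNA joins one variable first exon, which encodes the extracellular part, to a set of constant exons that all members of its family share and that encode a common cytoplasmic tail. Beta genes have no constant exons and are each encoded mainly by a single exon. A neuron chooses few of the alternative alpha, beta and gamma promoters, with help from CTCF and cohesin, whereas the C-type genes at the ends of the alpha and gamma arrays are used more widely.

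The deposited values were estimated counts, in which a read that matches several transcripts is divided among them. In the GENCODE M21 annotation, the constant exons came to 2860 bases in alpha transcripts and 2119 bases in gamma transcripts. They made up 48.6 to 54.9% of the 14 full-length alpha transcripts and 41.7 to 45.5% of the 21 full-length gamma transcripts. Of all 31-base words in a gene's transcripts, a median of 62.3% in alpha genes and 45.4% in gamma genes also occurred in another clustered protocadherin, with ranges of 44.9 to 70.2% and 27.3 to 67.5%. In beta genes the median was 11.8% and the range 0 to 22.5%. Of 26 beta transcripts, 22 had a single exon, and Pcdhb22-201, with 2 exons, held 5.80 to 41.0 counts per library. The predicted gene Gm42416, which is not a member, shared 2801 such words with members. Every alpha and gamma value was a fraction of a read, as 100% of them were more than 0.0005 from a whole number, against 23.6% of the beta values above 0 and 51.3% of the values above 0 over all genes. A set of 7 beta genes held whole numbers in every library by the same tolerance.

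Levels are given as CPM (counts scaled to the library total), scaled between libraries by TMM factors. Together the members reached 537 to 812 CPM in the 10 libraries. In the alpha family, the summed level was 176, 178, 217, 218 and 192 CPM in vehicle libraries 1 to 5 and 204, 166, 202, 209 and 149.7 CPM in AM6545 libraries 1 to 5. The beta family summed to 129.8, 154, 185, 183 and 162 CPM in the vehicle libraries and to 166, 149.8, 175, 202 and 123 CPM in the AM6545 libraries. Both families overlapped between the groups, and AM6545 replicate 5 was the lowest of the 10 libraries in each. The gamma family summed to 232, 393, 366, 351 and 364 CPM in the vehicle libraries and to 384, 298, 419, 401 and 330.3 CPM in the AM6545 libraries. Here vehicle replicate 1 lay below all the other libraries. These are amounts of RNA in a bulk fraction, in which fewer contributing cells or synapses and less RNA in each cannot be told apart.

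**Figure D1:**
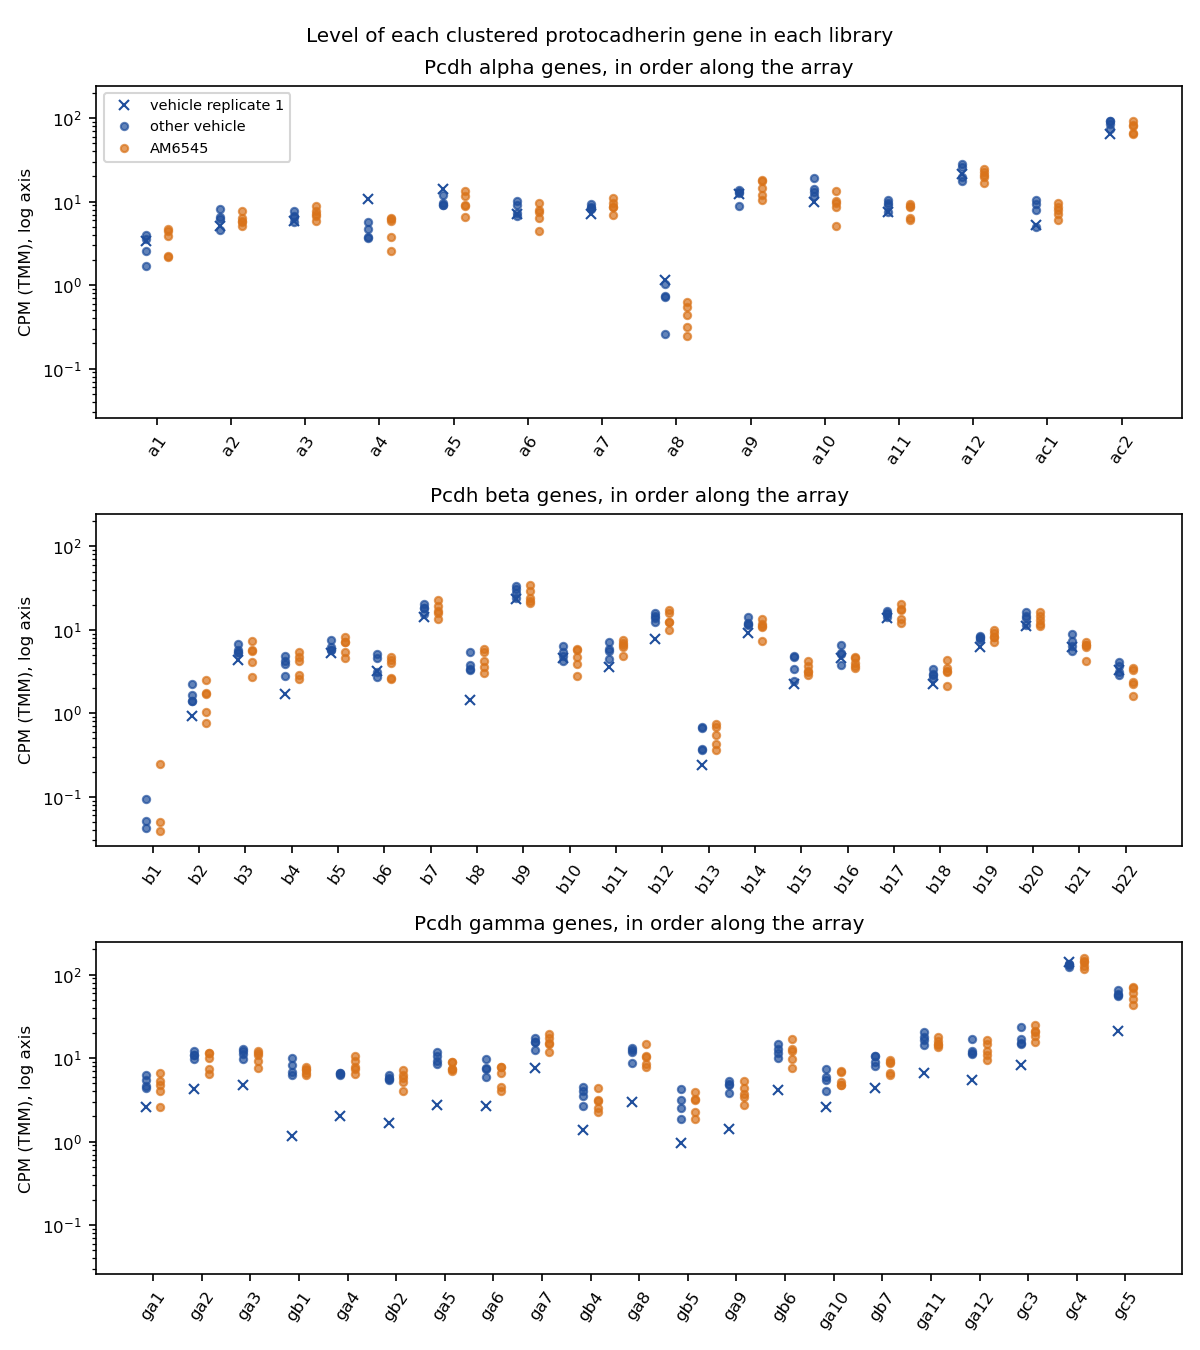
CPM (log axis) of each alpha, beta and gamma gene in each library, in array order, with vehicle libraries in blue (replicate 1 as a cross) and AM6545 libraries in orange; libraries at 0, for Pcdhb1 alone, are not drawn. The C-type genes Pcdhac2, Pcdhgc4 and Pcdhgc5 stand above the rest, the groups overlap for every gene, and the cross lies at the bottom for 20 of 21 gamma genes.

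Levels were compared between genes per kilobase of transcript, since transcripts differ in length. A C-type gene had the highest value in both families that have them. Pcdhgc4, a C-type gamma gene needed for the survival of many neurons, had 57.8 ± 5.29 CPM per kb (SD, n = 10), Pcdhac2, a C-type alpha gene known for its role in the spacing of serotonergic axons, 13.5 ± 1.94, and Pcdhgc5, which binds the gamma-2 subunit of GABA-A receptors, 12.6 ± 3.20. The difference between Pcdhac2 and Pcdhgc5 was smaller than the SD of either, while Pcdhgc4 stood apart from both by several times its SD. The Pcdhgc4 value came mostly from a short transcript, Pcdhgc4-203, made almost wholly of shared constant exons. The full-length Pcdhgc4-201 alone had 1.38 ± 0.462 CPM per kb (SD, n = 10), below the gamma median. The other gamma C-type gene, Pcdhgc3, was the third of the gamma family with 3.97 ± 1.04 CPM per kb, while Pcdhac1, with 1.43, lay below the alpha median.

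Among the beta genes, Pcdhb9 led with 8.83 ± 1.51 CPM per kb, followed by Pcdhb7 with 5.01 ± 0.824. Next came Pcdhb12 with 4.38 ± 0.964, Pcdhb20 with 3.798 ± 0.598 and Pcdhb17 with 3.36 ± 0.519, and each of these differed from its neighbour in the order by less than an SD. Of the alpha genes outside the C type, Pcdha12 was the highest with 4.08 ± 0.699 and Pcdha9 followed with 2.49 CPM per kb. The medians of the families lay close together, at 1.62 CPM per kb for alpha, 1.27 for beta and 1.78 for gamma. The order within a family was only partly that of the array. Spearman's rho of level (CPM) with position was 0.68 over the 14 alpha genes, 0.22 over the 22 beta genes and 0.51 over the 21 gamma genes. Outside the C type it was 0.66 over 12 alpha genes and 0.22 over 18 gamma genes. Alpha and gamma levels share reads through the constant exons, so these points are not independent.

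The lowest members were Pcdhb1 with 0.0204 CPM per kb, Pcdha8 with 0.114 and Pcdhb13 with 0.138. Pcdhb1 had 0, 2, 1, 0 and 1 counts in the vehicle libraries and 1, 0, 0, 6 and 1 in the AM6545 libraries, and was the single member left out by the filter on low counts. A total of 56 members were therefore tested.

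A single short transcript held a large share of the gamma total, 28.9 to 37.2% in 9 of the 10 libraries. Pcdhgc4-203, annotated as protein-coding, is 2272 bases long and has a first exon of only 153 bases, so that 93.3% of it is constant exon, against 42.2% of the full-length Pcdhgc4-201. Only 28 of its 2242 words of 31 bases occur in no other transcript. It received 139, 114, 127, 121 and 127 CPM in vehicle libraries 1 to 5 and 133, 111, 148, 134 and 116 CPM in AM6545 libraries 1 to 5. The groups overlapped, and 92.0 to 97.3% of the Pcdhgc4 count came from this transcript in the 10 libraries. Pcdhgc4-201 held 3.01, 8.34, 4.20, 6.31 and 6.59 CPM in the vehicle libraries and 6.41, 5.74, 10.4, 9.53 and 8.65 CPM in the AM6545 libraries. The level of Pcdhgc4 is thus almost wholly that of a transcript made of shared exons, and whether its reads came from Pcdhgc4 or from other gamma genes was not tested.

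Vehicle replicate 1 stood apart in the gamma family. Gamma counts other than Pcdhgc4-203 summed to 92.7 CPM in this library and to 279, 238, 230 and 237 CPM in vehicle libraries 2 to 5, a ratio of 0.38 to their mean. In the AM6545 libraries the same sum was 251, 187, 272, 267 and 214 CPM, so vehicle replicate 1 lay below all 9 others. Pcdhgc4-203 itself was not low there, with a ratio of 1.14, and made up 60.0% of the gamma count (2864 of 4775 counts, 95% Wilson interval 58.6 to 61.4%) against 28.9 to 37.2% in the other libraries. The interval covers counting error only, and not the error of dividing reads among transcripts.

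The drop ran through the gamma array. The ratio of vehicle replicate 1 to the mean of the other vehicle libraries was 0.31 for Pcdhga4, 0.36 for Pcdhgc5, 0.46 for Pcdhgc3 and 0.15 for Pcdhgb1, and it was lowest in Pcdhgb1 and highest in Pcdhga7 (0.50) among the 20 gamma genes other than Pcdhgc4. The share of Pcdhgc5 in the gamma count outside Pcdhgc4-203 was 23.0% in this library, within the range of 22.9 to 26.6% over the others. Vehicle replicate 1 was the lowest of the 10 libraries for 20 of 21 gamma genes, 8 of 22 beta genes and 0 of 14 alpha genes, against 23.5% of all tested genes. The share over all tested genes counts ties as lowest. With ties the beta count is 9 of 22, through Pcdhb1, which was not tested. The median deviation of its log2 CPM from the mean of all libraries was -1.15 over gamma, -0.26 over beta and -0.10 over alpha genes.

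Some alpha genes went the other way in that library, since 5 of 14 had a ratio above 1 and it was the highest of the 10 libraries for Pcdha4, Pcdha5 and Pcdha8. The ratio was 1.42 for Pcdha5 and 1.69 for Pcdha8. Pcdha4 had 10.7, 3.69, 4.72, 3.81 and 5.70 CPM in the vehicle libraries and 3.77, 5.84, 2.59, 6.33 and 6.18 CPM in the AM6545 libraries. In vehicle replicate 1 it was at 2.40 times the mean of the other vehicle libraries.

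**Figure D2:**
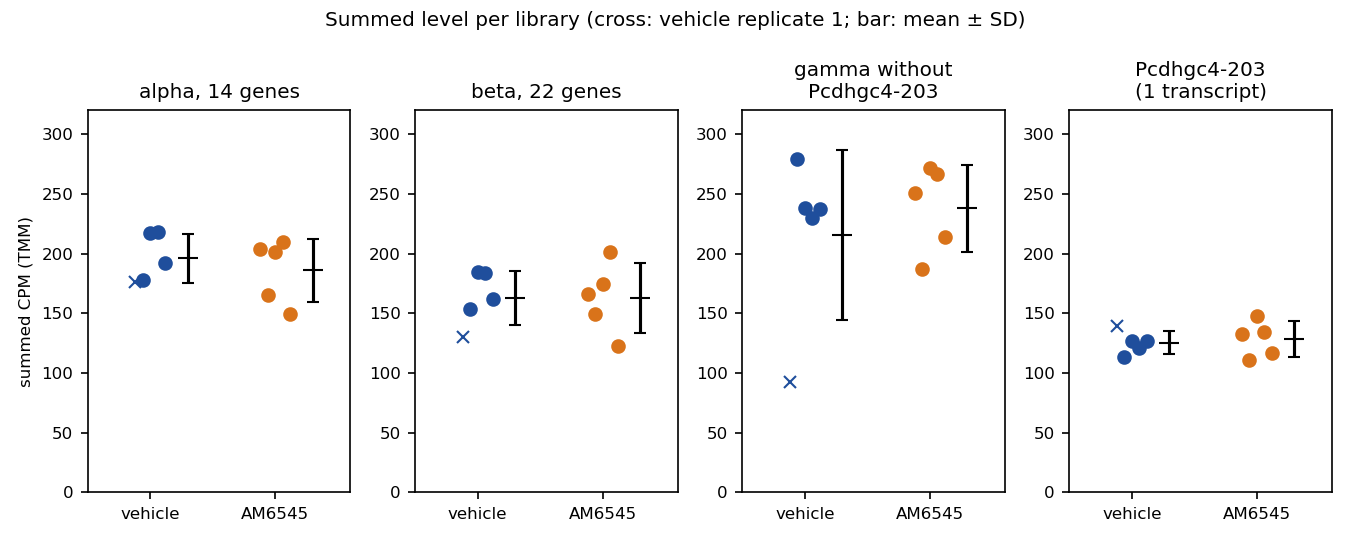
Summed CPM per library (points; vehicle replicate 1 as a cross) with mean ± SD of each group (n = 5) for the alpha family, the beta family, the gamma family without transcript Pcdhgc4-203, and that transcript alone. The cross at 92.7 CPM lies below every other library for the gamma sum, while the same library is the highest vehicle library for Pcdhgc4-203, with 139 CPM.

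The same library differed from the others in some general measures and not in others. Over all tested genes, the median deviation of log2 CPM in vehicle replicate 1 was 0.53 for genes with transcripts under 1 kb. The other 9 libraries lay there at -0.31 (AM6545 replicate 1) to 0.13. For genes of 1 to 2 kb vehicle replicate 1 was at 0.36 and the others at -0.16 to 0.03. For those of 4 to 5 kb it was at -0.20 and the others at -0.02 to 0.09. Above 7 kb it was at -0.05, within the range of the others, -0.10 to 0.10. Its summed level of the 4 choroid plexus and ependyma markers (Ttr, Kcnj13, Folr1 and Clic6) was the highest, with 4974 CPM, against 48.2 to 3176 CPM in the other vehicle libraries and 619 to 3898 CPM in the AM6545 libraries. The summed level of the 3 excitatory neuron markers was the lowest of the 10 libraries, with 1260 CPM against 1584 to 1797 CPM in the other vehicle and 1482 to 1762 CPM in the AM6545 libraries. The CA1 marker Wfs1 was also the lowest, with 105.2 CPM against 121 to 176 and 105.7 to 192 CPM. Among the vehicle libraries alone, it was also the lowest for the dentate granule marker Prox1 (52.6 CPM, others 64.3 to 77.2) and the oligodendrocyte precursor markers (26.02 CPM, others 29.1 to 32.6). It was the highest of them for red blood cell markers (590.4 CPM, others 199.4 to 533). The 3 synapse markers Dlg4, Snap25 and Syn1, with 4233 CPM, lay within the range of the other vehicle libraries, 4111 to 4884 CPM. Each sum is weighted to its most abundant gene. Over the 10 libraries, Snap25 had 2946 to 4494 CPM, Syn1 234 to 428 and Dlg4 20.6 to 28.9. Ttr had 41.5 to 4657 CPM, and Kcnj13 2.62 to 162. Astrocyte, inhibitory neuron, microglia, oligodendrocyte and endothelium markers also lay within the range of the other vehicle libraries. Over the 12 marker lists, vehicle replicate 1 was the lowest of the 10 libraries in 2 and the highest in 1. None of the lists had a gene at 0 in all libraries. The part of transcript length or of these cell types in the gamma values was not tested. Total counts were 18106112 to 25899794 per library, and vehicle replicate 1, with 21485869, was within this range.

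**Figure D3:**
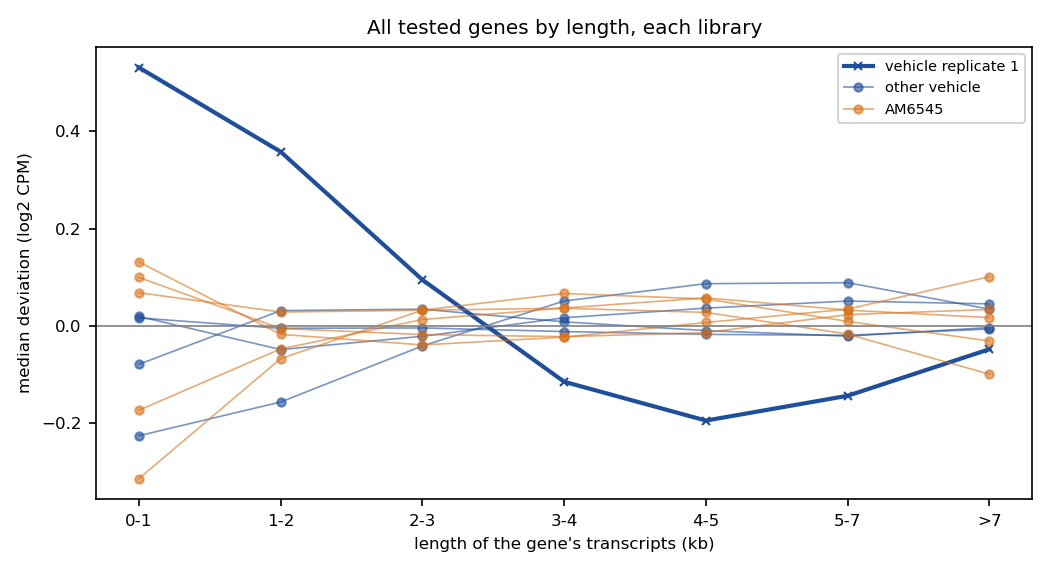
Median deviation of log2 CPM from the mean of the 10 libraries, over all tested genes grouped by transcript length (kb), 1 line per library (blue, vehicle; orange, AM6545). Vehicle replicate 1 (thick line) is at 0.53 for genes under 1 kb, where the other lines lie at -0.31 (AM6545 replicate 1) to 0.13. For genes of 4 to 5 kb it is at -0.20 and the other lines at -0.02 to 0.09.

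Count stability was expressed as the SD of log2 CPM between libraries of a group, pooled over the groups, minus the running median SD of the 200 tested genes nearest in level. A value of 0 is therefore a gene as variable as others of its level, and over all 14358 tested genes the quartiles were -0.047 and 0.058. The alpha genes had a median of 0.089, with 12 of 14 above 0, and the beta genes had a median of 0.065, with 17 of 21 above 0. The gamma genes had a median of 0.289, with 20 of 21 above 0, and 3.22% of all genes were at or above that median. Members of all 3 families were on the variable side, and the alpha median lay close to the beta median. The part of shared sequence in these values was not tested.

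The gamma value rested on 1 library. Without vehicle replicate 1, the median was 0.065 for gamma (17 of 21 above 0), 0.072 for beta (18 of 21) and 0.115 for alpha (12 of 14). The gamma median was then the lowest and the alpha median the highest. Pcdhgb1 was the most variable gamma gene, with 0.604 in all libraries and 0.006 without that one. Its levels were 1.17, 8.24, 6.33, 6.76 and 10.03 CPM in the vehicle libraries and 7.23, 7.50, 6.67, 7.74 and 6.23 CPM in the AM6545 libraries, with vehicle replicate 1 far below the rest.

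**Figure D4:**
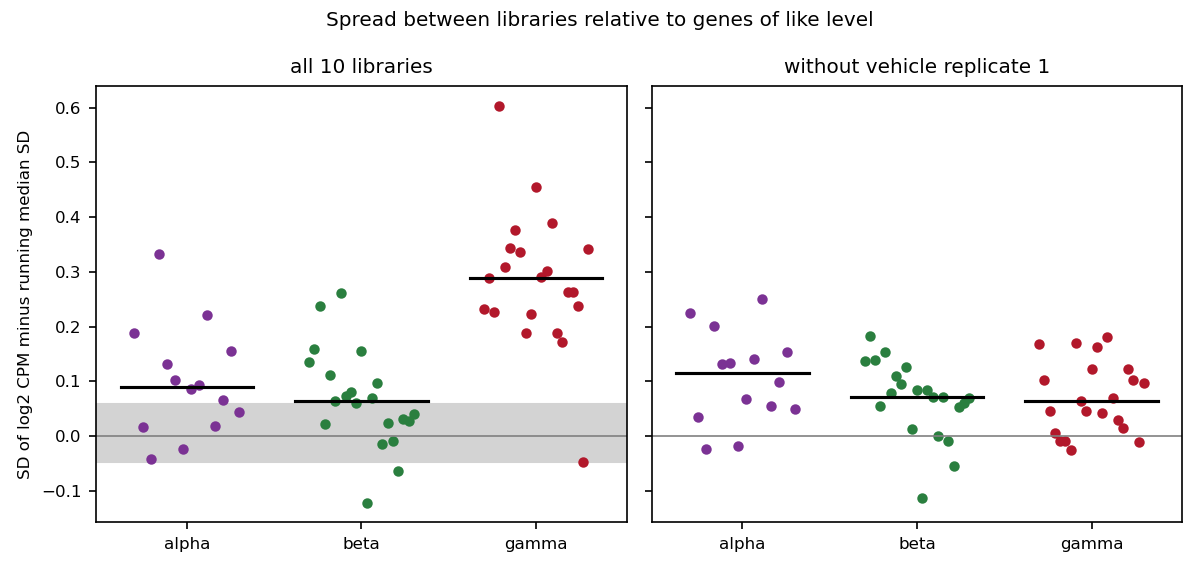
SD of log2 CPM between libraries minus the running median SD of genes of like level, for each tested member (points) and the median of each family (bars), with all 10 libraries (left; grey band, quartiles of all tested genes) and without vehicle replicate 1 (right). The gamma median falls from 0.289 to 0.065 when that library is left out, to the level of the beta genes.

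Pcdhgc4 was the only gamma gene below 0, at -0.048, with 143, 123, 134, 129 and 135 CPM in the vehicle libraries and 143, 118, 160.0, 145 and 126 CPM in the AM6545 libraries. In the alpha family, Pcdha4 was the most variable (0.333, and 0.201 without vehicle replicate 1) and Pcdha3 the least (-0.042). Pcdha3 had 5.92, 5.64, 7.62, 6.80 and 6.59 CPM in the vehicle libraries and 7.15, 6.67, 7.72, 8.91 and 5.93 CPM in the AM6545 libraries, which overlap throughout. Pcdhb8 was the most variable beta gene (0.261, and 0.110 without that library) and Pcdhb13 the least (-0.122). Pcdhb8 had 1.46 CPM in vehicle replicate 1, 3.32 to 5.41 CPM in the other vehicle libraries and 3.02 to 5.84 CPM in the AM6545 libraries, so the single low value was again that of vehicle replicate 1. Pcdhb13 had 0.24 to 0.68 CPM in vehicle and 0.36 to 0.75 CPM in AM6545 libraries, close to the level at which few reads decide a value.

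Within families, variability was set beside the share of sequence found in other members. Spearman's rho between the share of 31-base words and the stability measure was 0.01 over 14 alpha genes, 0.42 over 21 beta genes and 0.45 over 21 gamma genes, and without vehicle replicate 1 it was -0.02, 0.34 and -0.24. These points share libraries and, in alpha and gamma, reads. The share of words leaves out those found only in genes outside the cluster, of which Pcdha4 has many. Members of a family deviated together more than in opposite directions. The within-group variance of the summed CPM of a family was 2.84 times the sum of the variances of its members for alpha, 9.46 times for beta and 6.29 times for gamma, where 1 would mean independent deviations and lower values opposite ones. Without vehicle replicate 1 these were 3.47, 8.79 and 4.92. The median correlation of residual log2 CPM was 0.34 over 91 pairs of alpha genes, 0.57 over 210 pairs of beta genes and 0.82 over 210 pairs of gamma genes, against -0.003 over all pairs of tested genes. Over 9 libraries, without vehicle replicate 1, the medians within families were 0.37 for alpha, 0.55 for beta and 0.39 for gamma. Genes of different families also deviated together, with medians of 0.47 for alpha with beta, 0.29 for alpha with gamma and 0.46 for beta with gamma. Without vehicle replicate 1 these were 0.49, 0.23 and 0.25. The 95th percentile over all pairs of tested genes was 0.70. Joint deviation was therefore not particular to pairs within a family. Within families and with all libraries, the median was highest among gamma genes and lowest among alpha genes, both of which have constant exons. Beta genes, which have none, lay between, but were the highest without vehicle replicate 1. The part of the constant exons in these values was not tested.

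AM6545 was compared with vehicle by edgeR's quasi-likelihood test over all 14358 tested genes, with Benjamini-Hochberg adjustment. No clustered protocadherin passed an adjusted p of 0.05, with 0 of 56 against 0.0% of all tested genes, and DESeq2's Wald test and limma-voom also called 0 members. The smallest adjusted p among members was 0.9998. Unadjusted p was under 0.05 for 3 of 56 members, against 1.88% of all tested genes, and the groups did not overlap for 0 of 56 members, against 0.293% of genes. The standard error of a member's log2 fold change was 0.098 to 0.391. The median log2 fold change (AM6545 over vehicle) was -0.10 for alpha (range -0.86 to 0.25), 0.03 for beta (-0.38 to 0.34) and 0.08 for gamma (-0.11 to 0.56), against -0.006 over all genes, whose 5th and 95th percentiles were -0.26 and 0.24. In the gamma family, 15 of 21 values were above 0 with all libraries and 4 of 21 without vehicle replicate 1, when the median was -0.15. The alpha and beta medians were then -0.05 and -0.06.

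The 3 members with an unadjusted p under 0.05 did not survive adjustment. One was Pcdha10, whose identifier carries the symbol Pcdha11 in the name table but lies at the position of Pcdha10 in RefSeq's mouse annotation (GRCm38.p6). It had 9.85, 12.9, 14.1, 19.0 and 11.8 CPM in the vehicle libraries and 13.5, 8.68, 9.64, 10.2 and 5.04 CPM in the AM6545 libraries. In 3 of 5 AM6545 libraries it was below every vehicle library, and the log2 fold change was -0.52 ± 0.22 (SE; edgeR quasi-likelihood, unadjusted p = 0.0289, adjusted p = 0.9998).

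Pcdhga4 was the one gamma gene at that level. It had 2.04, 6.63, 6.28, 6.68 and 6.38 CPM in the vehicle libraries and 10.5, 7.44, 6.50, 9.16 and 7.81 CPM in the AM6545 libraries. In 4 of 5 AM6545 libraries it was above every vehicle library, while the fifth lay within the vehicle range. The log2 fold change was 0.56 ± 0.24 (edgeR, unadjusted p = 0.0339, adjusted p = 0.9998) and 0.35 ± 0.14 without vehicle replicate 1 (unadjusted p = 0.0250).

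Pcdha8, the lowest alpha gene, was the third. It had 1.17, 1.04, 0.26, 0.74 and 0.72 CPM in the vehicle libraries and 0.31, 0.62, 0.44, 0.54 and 0.25 CPM in the AM6545 libraries. The groups overlapped, since vehicle replicate 3 was among the lowest. The log2 fold change was -0.86 ± 0.39 (edgeR, unadjusted p = 0.0392, adjusted p = 0.9998), and without vehicle replicate 1 it was -0.69 ± 0.40 (unadjusted p = 0.108). Without that library 3 members were under 0.05, 1 alpha and 2 gamma, against 1.6% of genes. They were Pcdha10, Pcdhga4 and Pcdhga5, the last named after its value of -0.34 was seen.

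None of the 5 C-type genes passed the test. Pcdhac2 had 65.0, 74.3, 92.0, 93.0 and 85.6 CPM in the vehicle libraries and 91.8, 66.4, 81.6, 83.0 and 64.4 CPM in the AM6545 libraries, with a log2 fold change of -0.08 ± 0.12. Pcdhgc5 had 21.4, 66.1, 54.8, 57.8 and 57.7 CPM in the vehicle libraries and 60.8, 42.9, 68.7, 70.9 and 51.4 CPM in the AM6545 libraries. Its difference was 0.19 ± 0.26 with and -0.00 ± 0.13 without that library.

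The remaining C-type genes were Pcdhgc3, whose product binds Axin1, Pcdhgc4 and Pcdhac1. Pcdhgc3 had 8.16, 23.5, 14.6, 15.1 and 17.0 CPM in the vehicle libraries and 20.4, 15.7, 24.7, 18.2 and 20.9 CPM in the AM6545 libraries, with a log2 fold change of 0.35 ± 0.21 (0.19 ± 0.15 without vehicle replicate 1). Pcdhgc4 had a log2 fold change of 0.06 ± 0.10, the smallest SE of all members. Its count was mostly that of Pcdhgc4-203, at 0.03 ± 0.09, while the full-length Pcdhgc4-201 was at 0.51 ± 0.29. These SEs leave out the error of dividing reads. Pcdhac1 had 5.02 to 10.6 CPM in vehicle and 5.98 to 9.70 CPM in AM6545 libraries, a log2 fold change of 0.05 ± 0.20.

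None of the most abundant or most variable members outside the C type passed the test either. Pcdhb9 had 23.3, 24.4, 33.1, 30.6 and 27.8 CPM in the vehicle libraries and 29.1, 22.4, 23.9, 34.1 and 21.02 CPM in the AM6545 libraries, with a log2 fold change of -0.09 ± 0.14. Pcdhb8 was at 0.34 ± 0.27 (0.15 ± 0.21 without vehicle replicate 1), Pcdhb7 at 0.04 ± 0.14, Pcdhb17 at 0.09 ± 0.14 and Pcdha12 at -0.12 ± 0.14. The groups overlapped in each of these genes.

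Pcdha9, the third among the alpha genes by CPM, had 12.4, 13.7, 13.0, 12.8 and 8.97 CPM in the vehicle libraries and 14.7, 10.3, 17.5, 18.02 and 11.9 CPM in the AM6545 libraries. It was above vehicle libraries in 3 of 5 AM6545 libraries, and the log2 fold change was 0.25 ± 0.16 (edgeR, unadjusted p = 0.130). Pcdhb22 came after Pcdha10 and Pcdha8 among the lower values, at -0.38 ± 0.21 (unadjusted p = 0.0874), with 2.84 to 4.08 CPM in vehicle and 1.63 to 3.53 CPM in AM6545 libraries.

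**Figure D5:**
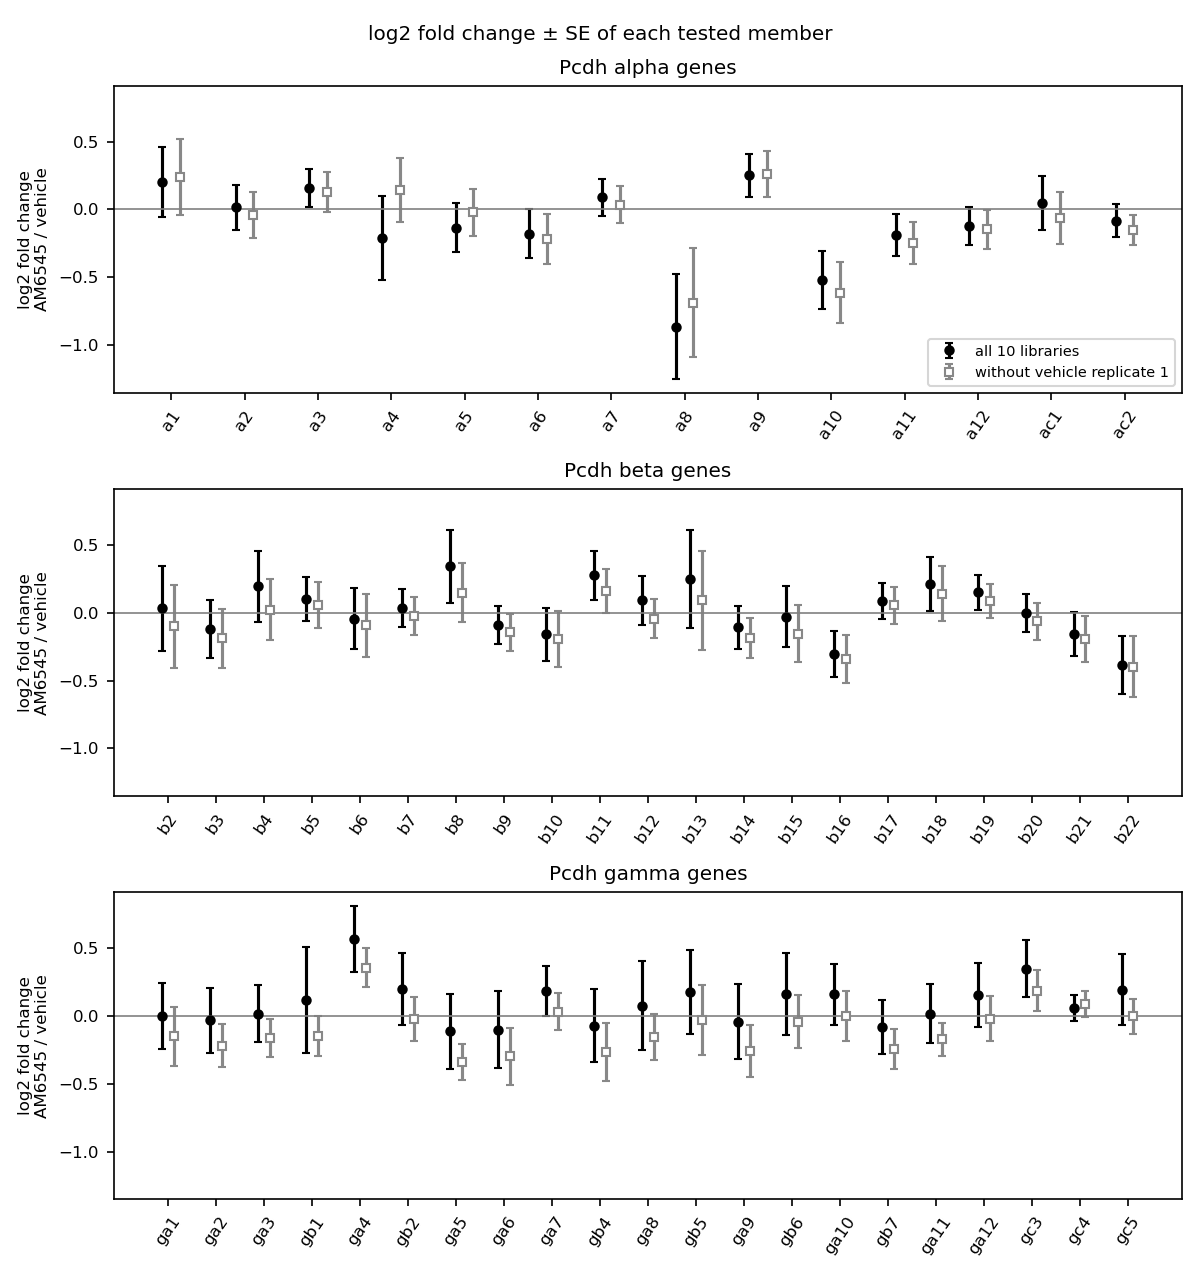
log2 fold change of AM6545 over vehicle ± SE for each of the 56 tested members, with all 10 libraries (black circles) and without vehicle replicate 1 (open squares). The gamma values move down together when that library is left out, from a median of 0.08 to -0.15, and no member passed the adjusted threshold.

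The transcript table gave no call among members either. It held 87 transcripts of the 57 genes, and the count of each gene equalled the sum over its transcripts to within 0.01. Of the 63 tested transcripts, 0 passed an adjusted p of 0.05 in edgeR's test, against 0.00314% of all tested transcripts, and 0 had an unadjusted p under 0.05, against 1.97%. The smallest unadjusted p values downward were those of the transcripts named Pcdha11-201 (the transcript of Pcdha10; -0.52 ± 0.26) and Pcdha8-201 (-0.86 ± 0.44), and upward those of Pcdhga4-201 (0.56 ± 0.30) and Pcdhgc4-201 (0.51 ± 0.29). The transcript Pcdhgc3-202, a predicted target of nonsense-mediated decay, was at 0 in 5 libraries, 2 vehicle and 3 AM6545, and at 55.5 to 109 counts in the other 5. Only 28 of its 3558 words of 31 bases occur in no other transcript.

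Other genes around clustered protocadherins were read from a list of 55 genes. It covered chromatin factors that act on promoter choice, the proteases that release the protein's intracellular part, cytoplasmic partners and signalling, and the non-clustered protocadherins. Of 53 tested, 0 rose and 0 fell at an adjusted p of 0.05 in edgeR's test, against 0.0% of all tested genes. An unadjusted p under 0.05 was found for 0 of them, against 1.88% of all tested genes. The median log2 fold change was 0.01 over the list, and 0.06, -0.09, 0.06 and -0.02 over the 4 groups in the order given. The smallest unadjusted p values were those of Rhoa, a small GTPase acting on actin, at 0.15 ± 0.09 (edgeR, unadjusted p = 0.142), and Pcdh11x, a non-clustered protocadherin, at 0.21 ± 0.14 (unadjusted p = 0.155). In the other direction they were those of Brk1, a subunit of the WAVE complex, at -0.19 ± 0.12 (unadjusted p = 0.147), and Psenen, a subunit of gamma-secretase, at -0.16 ± 0.14 (unadjusted p = 0.266). Vehicle replicate 1 was at 1.49 and 1.47 times the mean of the other vehicle libraries for Brk1 and Psenen. It was at 0.84 times that mean for Rhoa and 0.82 times for Pcdh11x. With single libraries left out, Brk1 was at -0.24 to -0.05 and Psenen at -0.23 to -0.03.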

How the data were processed

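Libraries were prepared from total RNA of hippocampal synaptoneurosomes (SMARTer Ultra Low Input kit, stated in the labels' protocols), 5 per group. The authors' deposited values are estimated counts for each gene and each transcript. Salmon 1.5.2 and the build mm10 are named in the submitters' processing notes; annotation release, strand use and filters are not given in the sources used here. Identifier versions differ from those of GENCODE M21, which served for names, lengths, exons and shared 31-base words, so no coordinates are printed. Sequences are not reported here.

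Estimated counts were rounded and fitted in edgeR 4.0.16 (R 4.3.3; TMM, filterByExpr with minimum count 10 and minimum total 15, robust quasi-likelihood, group alone, two-sided) over all genes or transcripts, with adjusted p 0.05 as the threshold. log2 CPM used a prior count of 2. CPM per kb divided each transcript's CPM by its length. Alternatives were DESeq2 1.42.0 (its test, or its size factors alone), total count scaling, limma 3.58.1 voom weights, other filters, a replicate block and leaving out each library. The fit was tested on simulated data. At these totals, 3 counts are 0.116 to 0.166 CPM, covering counting error only, since PCR copies cannot be told from separate molecules.

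Named members were the 5 C-type genes, the 3 of highest mean CPM in each family, the 3 with the smallest unadjusted p upward and downward, and the most and least variable of each family; transcripts and pathway genes were the 2 of smallest p in each direction. One gene of the pathway list is not reported here. Members and lists were chosen with earlier results of these data known.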

Additional observations from a re-analysis of the deposited data

Results flagged for a closer look

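Several values stood far from the other 4 libraries of their group, by Dixon's criterion at 95%. It picked out 8 of 66 groups examined, and 7 of the 8 are of vehicle replicate 1. Chance picks out about 1 in 20 independent groups, but these overlap, and some genes were named for their variability, so no chance count applies to them.

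In vehicle replicate 1, the gamma sum was 232 CPM, with the nearest vehicle library at 351 CPM, and Pcdhgc4-203 made up 60.0% of it, with the nearest at 34.9%. Pcdhgc5 was at 21.4 CPM, with the nearest at 54.8 CPM. Pcdhga4, and equally its transcript Pcdhga4-201, was at 2.04 CPM, with the nearest at 6.28 CPM. Pcdha4 was high in the same library, at 10.7 CPM, with the nearest at 5.70 CPM. Brk1, a short subunit of the WAVE complex, was high there too, at 342 CPM, with the nearest at 239 CPM.

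The remaining value was in another library. Pcdha9 was low in vehicle replicate 5, at 8.97 CPM, with the nearest vehicle library at 12.4 CPM.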

How the results depend on the processing

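No member, member transcript or gene of the pathway list passed the threshold under any alternative run, in which 0 were called by each tool and without each library. Of 440 alternative values for 27 named genes and transcripts, 427 kept their direction and 13 reversed. With limma-voom quality weights, Pcdha4 became 0.031, Pcdhac1 -0.049 and Pcdhgb1 -0.044. Leaving out single libraries gave log2 fold changes of -0.33 to 0.14 for Pcdha4, -0.072 to 0.19 for Pcdhac1, -0.077 to 0.12 for Pcdhb7, -0.010 to 0.17 for Pcdhb17, -0.15 to 0.33 for Pcdhgb1 and -0.0038 to 0.30 for Pcdhgc5. The gamma stability measure was 0.065 to 0.318 with single libraries left out, the lowest without vehicle replicate 1. Measured as the square root of the quasi-likelihood dispersion minus its running median, which is another scale, it was 0.81, against 0.31 for alpha and 0.22 for beta. The labels do not say whether replicate numbers pair libraries. Deviations of same-numbered libraries correlated at -0.19 to 0.39. The best match carried the same number for replicates 3, 4 and 5 and another number for replicates 1 and 2, which cannot settle the pairing. With the replicate block, 0 members were called and the gamma median was 0.18. Depth limits Pcdhb1, Pcdha8 and Pcdhb13, the lowest members. Estimated counts carry an error of dividing shared reads that these tables do not give.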
